A study of Rattus norvegicus with 8 samples.

Results

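Fatty acid use and lipid droplet genes were described in the epitrochlearis, a small forelimb muscle of the rat made mostly of fast fibres. The set held 9 genes: Cd36, Lpl and Angptl4 for fatty acid uptake, Cpt1b and Mlycd for carnitine and malonyl-CoA control, Plin2 and Plin5 for the lipid droplet, and Pdk4 and Ucp3 for fuel choice and uncoupling. A probe set belonged to it where its only gene symbol in the array annotation was 1 of these names. This gave 12 probe sets, at least 1 for each of the 9 genes, of 31042 tested on the arrays, of which those with 1 symbol name 14217 genes. Another probe set, which carried the Cd36 symbol beside a second symbol, was left out.

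All animals were male Sprague-Dawley rats of 6 weeks that had practised swimming on 3 days, had eaten a diet restricted to 5 g on the day before, and then swam for 2 h. Directly after the swim each rat received a 44 kJ meal of carbohydrate by gavage, with an amino acid mixture (AAM, n = 4) or with whey protein hydrolysate (WPH, n = 4), which is whey protein cut by enzymes into peptides. Muscle RNA from each rat was hybridised to 1 Affymetrix 3' expression array. No rested and no unfed animals were among the 8, so the data hold no effect of the swim or of feeding as such. The question addressed is whether the hydrolysate and the amino acids left different levels of these transcripts. No source used here gives the time from the meal to sampling.

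Muscle burns fatty acids that lipoprotein lipase (Lpl) frees from circulating triglyceride and that the membrane protein CD36 helps to take up. Angptl4 encodes a secreted inhibitor of lipoprotein lipase. Inside the fibre, carnitine palmitoyltransferase 1 (Cpt1b in muscle) is the gate into the mitochondrion. Malonyl-CoA closes this gate, and malonyl-CoA decarboxylase (Mlycd) removes malonyl-CoA. Fatty acids that are not burned are stored in droplets coated by perilipins such as Plin2 and Plin5. Pdk4 encodes a kinase that switches off pyruvate dehydrogenase and so spares glucose, and Ucp3 encodes a mitochondrial carrier that rises with fatty acid supply. Fasting and exercise are known to raise several of these transcripts through PPAR nuclear receptors.

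The deposited levels ran from 5.28 to 14.2 on a log2-like scale. Array medians ran from 6.6627855 (AAM 2) to 6.6628522 (AAM 3). This spread is wider than the whole range over the 8 arrays of some probe sets below, such as 4.97e-05 for Mlycd and 4.63e-06 for Lpl. Differences between arrays were minute, with a median SD per probe set of 3.69e-06 across the 8 arrays. Such differences give no fold change, and the values below are deviations from the mean of the 8 arrays in units of 1e-06 of the deposited scale. Sizes are given as the standardized difference, WPH minus AAM over the pooled SD within groups, with a 95% interval. Fast fibre markers were present, with deposited levels such as 13.7 for Myh4 and 14.0 for Tnnt3. Each rat counts as 1 replicate, and 4 per meal limits the precision.

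None of the 12 probe sets passed the threshold of an adjusted p of 0.05 in limma, nor did any of the 31042 tested (0.0%). The smallest adjusted p among the 12 was 0.9998. At an unadjusted p of 0.05, 1 of the 12 passed, against 3.58% of all tested. That probe set was Mlycd, which was also the only one of the 12 whose 4 WPH arrays did not overlap with the 4 AAM arrays, against 2.23% of all tested. Of the 12 probe sets, 9 were lower after WPH and 3 higher, beside 52.7% lower among all tested. With median centring 11 were lower, as were 91.0% of all tested, and with quantile normalization 5 were lower, 1 was higher and 6 showed no difference. Among all tested, quantile normalization gave 13032 lower (42.0%), 13819 higher and 4191 without difference. The median standardized difference was -0.38 over the 12 and -0.04 over all tested. Without AAM replicate 1 the 12 divided evenly, 6 higher and 6 lower, and without WPH replicate 4, 5 were higher. Without AAM replicate 3 or WPH replicate 3, 2 were higher.

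**Figure D1:**
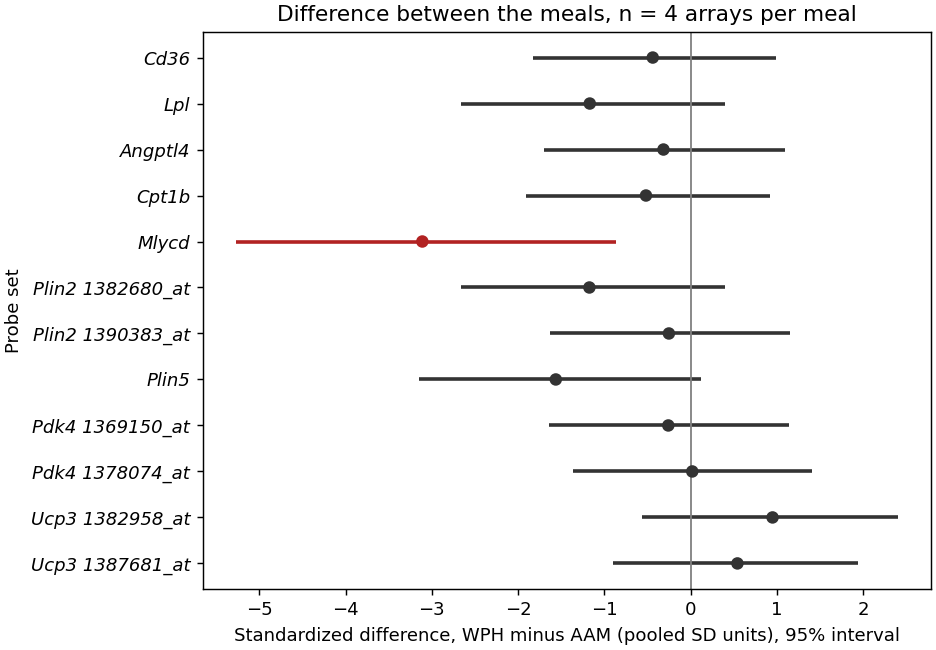
Standardized difference between the meals (WPH minus AAM, in pooled SD units, x axis) for each of the 12 probe sets (y axis), with points for the estimate and lines for the 95% interval, n = 4 arrays per meal. The interval of Mlycd, from -5.27 to -0.86 and drawn in red because its groups did not overlap, is the only one of the 12 that leaves out 0.

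Among the uptake genes, Cd36 (mean level 10.2) gave -22.0, 39.0, -7.74 and 37.9 on AAM 1 to AAM 4 and 35.8, 29.6, 0.72 and -113 on WPH 1 to WPH 4. The groups overlapped, and WPH 4 lay far below the other 7 arrays. The difference was -23.6 ± 38.1 (SE, n = 4 per meal), a standardized difference of -0.44 (-1.83 to 0.99). Without WPH replicate 4 the difference turned to 10.2, so its sign rested on that array.

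Lpl (mean level 12.6) varied little. It gave -1.19, -0.33, 2.09 and 2.95 on the AAM arrays and -0.64, -1.68, -1.41 and 0.20 on the WPH arrays. All 4 WPH arrays were below the AAM mean, but the groups overlapped (standardized difference -1.17, -2.66 to 0.40; exact permutation p = 0.2).

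Angptl4 (mean level 7.47) ranged over 4500 units, a spread whose SD exceeded that of 98.9% of the probe sets tested. It gave 2353, -598, 1549 and -2135 on the AAM arrays and -2146, -1221, 1084 and 1114 on the WPH arrays. High and low arrays occurred with both meals, and the difference of -584 ± 1313 (SE, n = 4 per meal) was smaller than its error (standardized difference -0.31, -1.70 to 1.09). In deposited units it turned to 1.03e-04 without AAM replicate 1 and to 3.37e-05 without WPH replicate 1.

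Of the malonyl-CoA and carnitine genes, Mlycd (probe set 1367638_at, mean level 9.96) gave 9.17, 10.5, 23.4 and 9.77 on the AAM arrays and -26.3, -5.73, -5.35 and -15.5 on the WPH arrays. Every WPH array was below every AAM array. The difference was -26.4 ± 6.01 (SE, n = 4 per meal), a standardized difference of -3.11 (-5.27 to -0.86). Its exact permutation p of 0.0286 is the smallest that 4 arrays against 4 can give, and limma's p of 0.00299 became 0.9998 after adjustment over all tested. The WPH arrays stayed lower when any single array was left out, with differences between -29.1 and -22.1. With median centring Mlycd differed by -3.81e-05 deposited units, and limma's p rose to 0.0397 (adjusted 0.731). With quantile normalization its difference was 0, as were those of 4191 of the 31042 tested. That method assigns values by rank, so a probe set that keeps its rank on every array gets 0. Such a 0 does not show equal levels.

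Cpt1b (mean level 10.8) had another order of arrays. It gave -11.9, 33.9, 2.90 and 3.69 on the AAM arrays and 5.40, 24.9, -4.03 and -54.8 on the WPH arrays. The groups overlapped, with a standardized difference of -0.52 (-1.91 to 0.92). As with Cd36, the lowest array was WPH 4, and without it the difference turned from -14.3 to 1.60.

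**Figure D2:**
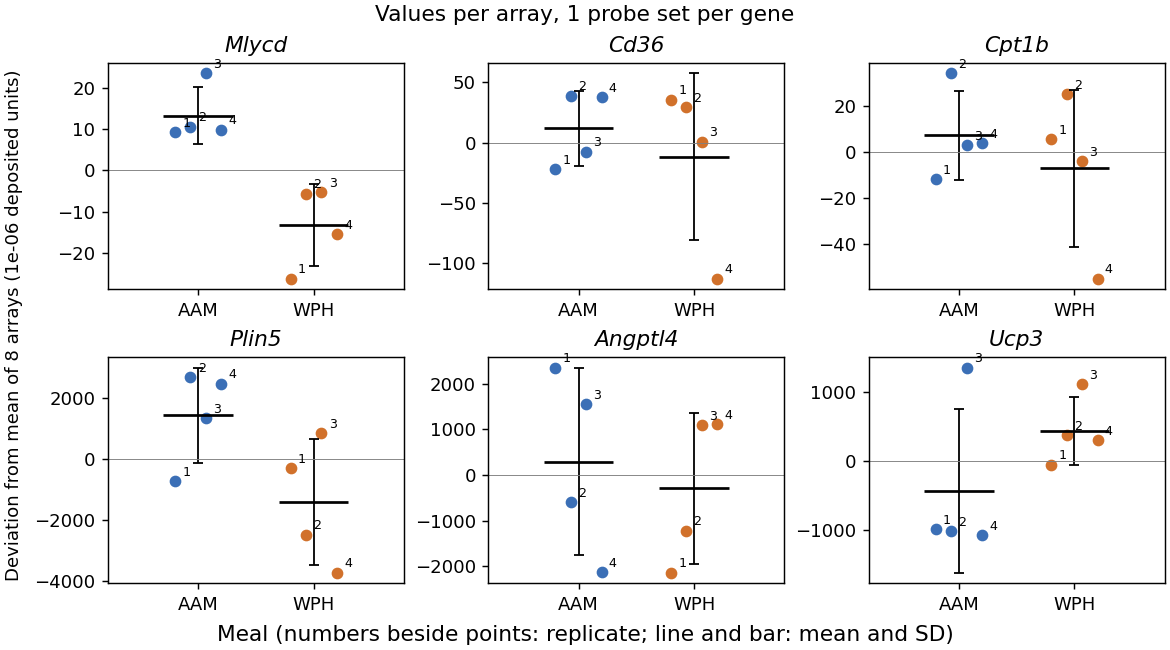
Deviation of each array from the mean of the 8 arrays (y axis, 1e-06 deposited units, a separate scale in each panel) for 6 genes after AAM and WPH (x axis), using each gene's probe set of highest mean level. Points are arrays with their replicate number, and lines and bars are the mean and SD of 4 arrays. Only Mlycd of the 6 has groups that do not overlap, and WPH 4 is the lowest point for Cd36, Cpt1b and Plin5.

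The droplet coat gene Plin5 (mean level 8.59) gave -732, 2679, 1325 and 2458 on the AAM arrays and -314, -2495, 829 and -3748 on the WPH arrays. All 4 WPH arrays were below the AAM mean, but AAM 1 was below both WPH 1 and WPH 3. The standardized difference was -1.56 (-3.15 to 0.12), with an exact permutation p of 0.0857. Its sign held when any single array was left out, with differences from -3618 to -2092. Its SD over the arrays exceeded that of 99.1% of the probe sets tested.

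Plin2, the perilipin found on droplets of most tissues, had 2 probe sets that did not follow each other over the 8 arrays (Pearson r = -0.16). Probe set 1382680_at (mean level 9.02) gave 161, 269, -147 and 60.9 on the AAM arrays and 67.8, -99.1, -130 and -182 on the WPH arrays. Its standardized difference was -1.17 (-2.66 to 0.40), and AAM 3 was lower than 3 of the WPH arrays. Probe set 1390383_at (mean level 7.37) gave 139, 42.3, 106 and -217 on the AAM arrays and -177, 31.8, -11.2 and 86.6 on the WPH arrays. Here the lowest array was AAM 4, and the standardized difference was -0.25 (-1.63 to 1.15). In deposited units the difference turned to 5.28e-06 without AAM replicate 1 and to 1.82e-05 without WPH replicate 1. The probe sets therefore give no single pattern for Plin2.

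Pdk4, a classic transcript of fasted and exercised muscle, also had 2 probe sets. The brighter of them, 1378074_at (mean level 13.8), stayed within 0.68 units over all 8 arrays, a spread with a larger SD in 97.8% of the probe sets tested. Its standardized difference was 0.02 (-1.37 to 1.40). This level is near the highest deposited value of 14.2, and WPH 1 and WPH 2 had the same value. Whether a probe set so near the top can show a difference was not tested. Probe set 1369150_at (mean level 11.0) gave 8.61, 2.04, -7.05 and 0.68 on the AAM arrays and -3.34, -9.04, 13.2 and -5.17 on the WPH arrays. The highest and the lowest of these values were both WPH arrays, and the standardized difference was -0.26 (-1.64 to 1.15). The sign of this small difference turned without AAM replicate 1 or WPH replicate 2.

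Ucp3 was higher after WPH on both probe sets, within the error. Probe set 1382958_at (mean level 8.94) gave -986, -1018, 1352 and -1076 on the AAM arrays and -53.7, 369.7, 1109 and 303 on the WPH arrays. The 4 WPH arrays all exceeded AAM 1, AAM 2 and AAM 4, and AAM 3 was the highest of all. The standardized difference was 0.95 (-0.57 to 2.40), with an exact permutation p of 0.286. Without AAM replicate 3 the difference rose from 864 to 1459. Probe set 1387681_at (mean level 8.50) took only 2 separate levels, with AAM 2, AAM 4 and WPH 4 between -13.0 and -11.0 and the other 5 arrays between 6.85 and 8.45. Its standardized difference was 0.54 (-0.90 to 1.94), and the sign turned with median centring (a difference of -6.10e-06 deposited units) and with quantile normalization (-7.42e-04). Its difference of 5.60 moved to 2.21 without AAM replicate 4, to 2.48e-06 deposited units without AAM replicate 2 and to 10.2 without WPH replicate 4.

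**Figure D3:**
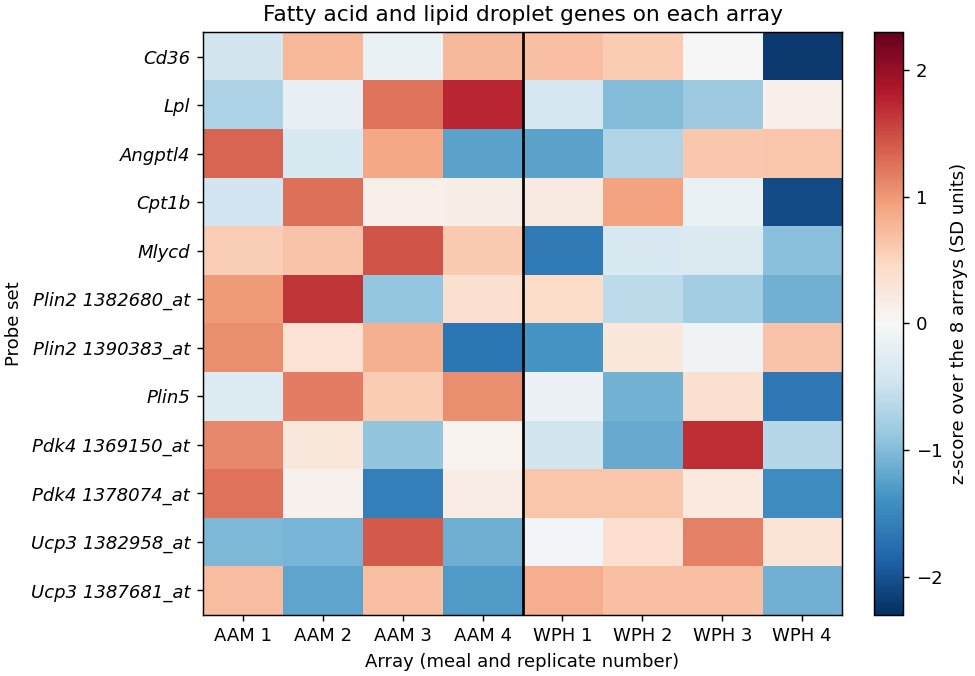
z-scores over the 8 arrays (colour, SD units) for the 12 probe sets (rows) on each AAM and WPH array (columns, meals divided by the black line). Mlycd alone changes colour at the line, WPH 4 is the lowest array for Cd36 and Cpt1b, and the pairs of probe sets for Plin2, Pdk4 and Ucp3 differ within their gene.

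The 9 genes did not vary as a block. Of the 66 pairs of probe sets, 36 had a positive correlation over the 8 arrays, and the median r was 0.07. Exact permutation tests gave 0 pairs with an adjusted p of 0.05 or less over the 66 pairs and 3 at the unadjusted level. Cd36 and Cpt1b were the closest pair. Their Pearson r was 0.92 (exact p = 0.00253, adjusted 0.152) and Spearman's rho 0.88 (exact p = 0.00724, adjusted 0.239). Without AAM 1 and WPH 4, the arrays farthest from the median of Cd36, r was 0.57 over 6 arrays. WPH 4 was the lowest of the 8 arrays for 4 of the 12 probe sets (Cd36, Cpt1b, Plin5 and Plin2 1382680_at), against 13.8% of all tested. The same array had the highest fast fibre score, 1.23, where a score is the mean z-score of a list's measured markers, while the other 7 arrays lay between -0.68 and 0.37. Its slow fibre score was -0.99, and that of WPH 3 was -1.11. Each marker weighs the same in a score, however little it varies. Tnnc2, at 2.15 on WPH 4, had an identical -0.20 on AAM 2, AAM 3, WPH 2 and WPH 3, so its values moved in a few steps. On WPH 4, Tnnt3, Tnni2 and Actn3 had 1.91, 1.89 and 1.82, and Myh4 and Myh1 0.15 and 0.23. The part of fibre type in these values was not tested. The summed level of the 10 measured fast fibre markers of 11 listed ran from 132.9917 to 132.9925 after AAM and from 132.9920 to 132.9930 after WPH, and that of the 8 slow fibre markers from 85.93 to 85.99 and from 85.93 to 86.01. The fast fibre score had r = -0.70 with Cd36 (rho = -0.07) and r = -0.74 with Cpt1b (rho = -0.40) over 8 arrays, and without AAM 3 and WPH 4 r was -0.05 and -0.27. Cd36 also moved against the macrophage score, with r = -0.77 (exact p = 0.00637, adjusted 0.166), rho = -0.81 and r = -0.73 without AAM 4 and WPH 1. None of the marker probe sets passed the threshold. Higher after WPH were 13 of 16 for fast fibres, 4 of 15 for slow fibres, 3 of 10 for fat cells, 9 of 11 for endothelium and 5 of 6 for macrophages. With median centring these counts were 2, 2, 1, 5 and 3, and with quantile normalization 1, 4, 0, 4 and 1. Of all 31042 tested, 2796 were higher with median centring and 13819 with quantile normalization. Leaving out 1 array brought the endothelial count as low as 6 and the macrophage count as low as 3.

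Angptl4 moved with the summary score of fat cell markers across the arrays, with high and low arrays in both meals. Of the 8 measured markers 6, like Angptl4, lay above their mean on AAM 1 and below it on AAM 4. These were the highest and the lowest array of the score, which is made from the same markers. The count therefore repeats the score and is no separate support. Fat cells are known to express Angptl4, but the cell type behind its level on these arrays was not tested. The adipocyte score, over 8 measured markers of 9 listed, was 0.81, -0.04, 0.64 and -0.82 on AAM 1 to AAM 4 and -0.55, -0.70, 0.19 and 0.47 on WPH 1 to WPH 4. Its Pearson r with Angptl4 was 0.96 (exact permutation p = 3.97e-04, adjusted p = 0.0238 over 60 relations of 12 probe sets with 5 marker scores). The members and lists were chosen with earlier results of these data known, and the adjustment over 60 does not cover that choice. Spearman's rho was 0.93 (exact p = 0.00223, adjusted 0.134). Without AAM 4 and WPH 2, the arrays farthest from the median score, r was 0.97 over 6 arrays. Of the 60 relations 7, this one included, had an unadjusted p below 0.05 for r, and no other had an adjusted one. The z-scores of Adipoq, the adiponectin gene, were 1.34 on AAM 1, -1.33 on AAM 4 and -0.99 on WPH 1, next to 1.35, -1.22 and -1.23 for Angptl4. Plin1, the perilipin of fat cells, had 1.33, -1.46 and -0.87 on the same arrays, and Cidec, a droplet fusion gene, had 1.08, -1.45 and -0.88. Cfd and Fabp4 had 0.93 and 0.89 on AAM 1 and -1.02 and -1.04 on AAM 4. These 5 also lay above their mean on AAM 3 and below it on WPH 1 and WPH 2, as Angptl4 did, and the other 3 measured markers did not. This order too restates the score, to which the markers belong. Aqp7, a glycerol channel, was lowest on AAM 1 (-1.56) and had 0.84 on AAM 4. Lep, the leptin gene, had -0.85 on AAM 3 and 0.50 on AAM 4, and Car3 had -0.84 on AAM 3 and 0.28 on WPH 1. The macrophage score, over 6 of 6 markers, also moved with Angptl4, with r = 0.82 (exact p = 0.0226, adjusted 0.226) and r = 0.61 without AAM 4 and WPH 1. Its r with Plin2 probe set 1390383_at was 0.77 (exact p = 0.0277, adjusted 0.237). The summed level of the macrophage markers ran from 50.9230 to 50.9238 after AAM and from 50.9230 to 50.9236 after WPH. The part of macrophages in these values was not tested.

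Plin2 probe set 1390383_at showed a like order, with r = 0.81 against the adipocyte score (exact p = 0.0110, adjusted 0.166) and r = 0.85 with Angptl4 (exact p = 0.00461, adjusted 0.152). Without the 2 arrays farthest from the median, these were 0.94 and 0.62. Other members followed the adipocyte score less closely or moved against it. The brighter Plin2 probe set 1382680_at had r = -0.14 and Lpl -0.09. Mlycd had r = 0.34, and 0.64 without AAM 4 and WPH 2. Cd36 moved against the score with r = -0.66 (exact p = 0.0505, adjusted 0.379) and rho = -0.76 (exact p = 0.0368, adjusted 0.416). Cpt1b had r = -0.50 and rho = -0.67. The adipocyte score itself did not separate the meals, at 0.15 ± 0.74 after AAM and -0.15 ± 0.57 after WPH (SD, n = 4 each). The summed level of these markers ran from 66.9 to 67.1 after both AAM and WPH. Adipoq, Plin1, Cidec and Lep were dim, with mean levels of 6.40, 6.09, 6.22 and 6.13, below the array medians of 6.66. Aqp7 had 7.40 and Cfd 9.08. The largest parts of the sum came from Fabp4 (11.9) and Car3 (13.8), and the level of Car3 was close to the 13.7 of the fast fibre marker Myh4. In whole muscle, fewer cells of a type and less RNA per cell cannot be told apart. The part of fat tissue in the level of Angptl4 was not tested, and 4 arrays per meal are too few for the relation within a meal.

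**Figure D4:**
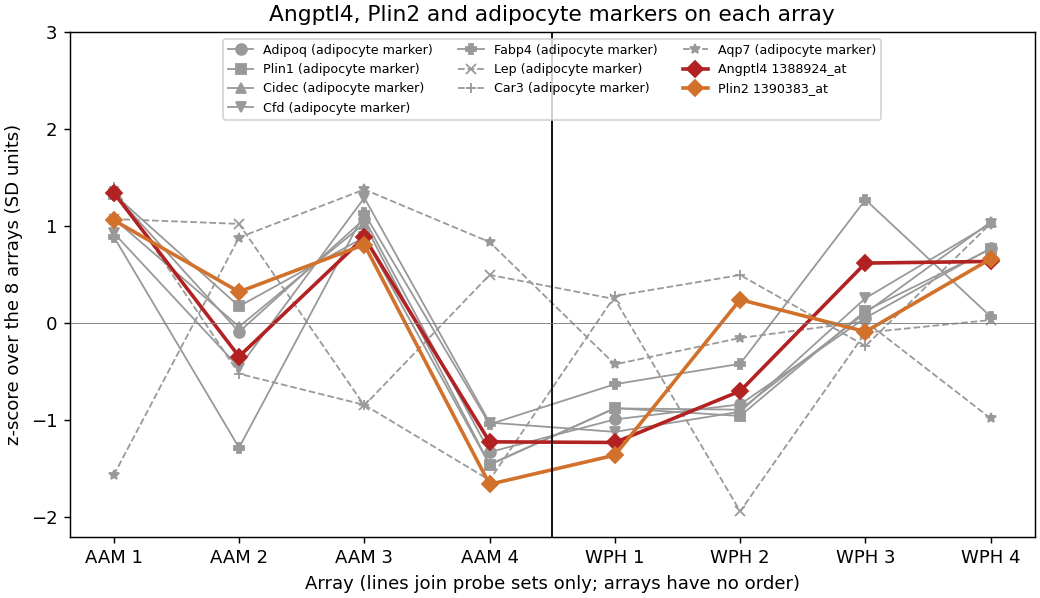
z-scores over the 8 arrays (y axis, SD units) of Angptl4 (red), Plin2 probe set 1390383_at (orange) and the 8 measured adipocyte markers (grey) on each array (x axis; lines only join the points of a probe set). Angptl4 and the solid grey markers (Adipoq, Plin1, Cidec, Cfd and Fabp4) are high on AAM 1 and AAM 3 and low on AAM 4, WPH 1 and WPH 2, while the dashed grey markers (Lep, Car3 and Aqp7) depart from this on 1 or more of these arrays.

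The wider pathway was read from a list of 80 other genes, of which 78 were measured by 124 probe sets. None of the 124 passed the threshold, none had an unadjusted p below 0.05, and none had groups without overlap. Of the 124, 84 were lower after WPH (67.7%), beside the 52.7% of all tested. The split was 108 lower of 124 with median centring and 56 lower, 44 higher and 24 without difference with quantile normalization. Without AAM replicate 3 it was 67 lower and 57 higher, and without both AAM replicate 3 and WPH replicate 4 it turned to 57 lower and 67 higher. Of all tested, 91.0% were lower with median centring and 42.0% with quantile normalization. The same shares stand beside the counts by role below.

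By role, 23 of 28 lipid droplet and lipolysis probe sets were lower after WPH, with a median standardized difference of -0.30. With quantile normalization 17 of these were lower and 7 higher. The number higher, 5 of 28, was 10 without AAM replicate 3, 9 without WPH replicate 2 and 11 without WPH replicate 4. Dgat1, which completes triglyceride synthesis, had -1.45 (-3.01 to 0.19), and Cidea, a droplet protein of brown fat, had -0.99. Abhd5, the activator of the lipase encoded by Pnpla2, had -1.03 on its brighter probe set and -0.24 on the other. Pnpla2 itself had -0.32 (-1.71 to 1.09) and Plin3 -0.38. Uptake and activation genes had 18 of 23 probe sets lower, and 12 with quantile normalization. Without AAM replicate 3, 13 were lower. Lmf1, a factor needed for lipase folding, had -1.60 (-3.20 to 0.09) and the acyl-CoA synthetase gene Acsl6 -1.19 on a dim probe set (mean level 5.63) but -0.17 on its brighter one (8.58). Fabp3, the fatty acid binding protein of muscle, had -0.75, and Acsl1 -0.71.

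For beta-oxidation, 17 of 23 probe sets were lower, with a median of -0.46. Acaa2, the last thiolase of the spiral, had -1.51 (-3.08 to 0.15). Hadha and Hadhb, the subunits of the trifunctional protein, had -1.21 and -1.28, and Acadvl had -0.51. The split moved with single arrays. AAM 3 had the highest beta-oxidation score, 1.46, and AAM 1 the lowest, -1.14. Without AAM replicate 3, 11 were lower and 12 higher, without AAM replicate 1, 21 were lower and 2 higher, and with quantile normalization 10 were lower, 2 higher and 11 without difference. Carnitine and malonyl-CoA genes divided 9 lower to 6 higher, and 13 to 2 with median centring. The split turned with quantile normalization, to 5 lower and 8 higher, and without WPH replicate 3, to 7 lower and 8 higher. Of all tested, 13032 were lower and 13819 higher with quantile normalization. Slc25a20, the carnitine carrier, had -0.90, Cpt2 -0.52 and Acacb, which makes malonyl-CoA at the mitochondrion, -0.35. Prkaa1, a catalytic subunit of AMP-activated kinase, had 0.89 on its brightest probe set but 0.25 and -0.02 on its others.

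Pyruvate dehydrogenase and uncoupling genes had 5 of 14 probe sets lower, and 11 of 14 with median centring. Without AAM replicate 1 it was 8 of 14. The phosphatase gene Pdp2 had 1.37 (-0.25 to 2.91) and the kinase gene Pdk1 1.20 on probe set 1368079_at but -0.17 on its brighter one. Pdk2, Pdp1 and Ucp2 had -0.41, -0.93 and 0.77. Of the PPAR and partner genes, 12 of 21 were lower, and 19 of 21 with median centring. The split turned to 8 lower and 11 higher with quantile normalization, and to 10 lower and 11 higher without AAM replicate 1, WPH replicate 1 or WPH replicate 4. Of all tested, 91.0% were lower with median centring and 42.0% with quantile normalization. Ppara had -0.17 (-1.55 to 1.23) and Ppargc1a -0.05 (-1.44 to 1.33). Ppard had 1.16 on probe set 1387684_at and 0.26 on its brightest one, and the partner gene Rxrg had -1.29.

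**Figure D5:**
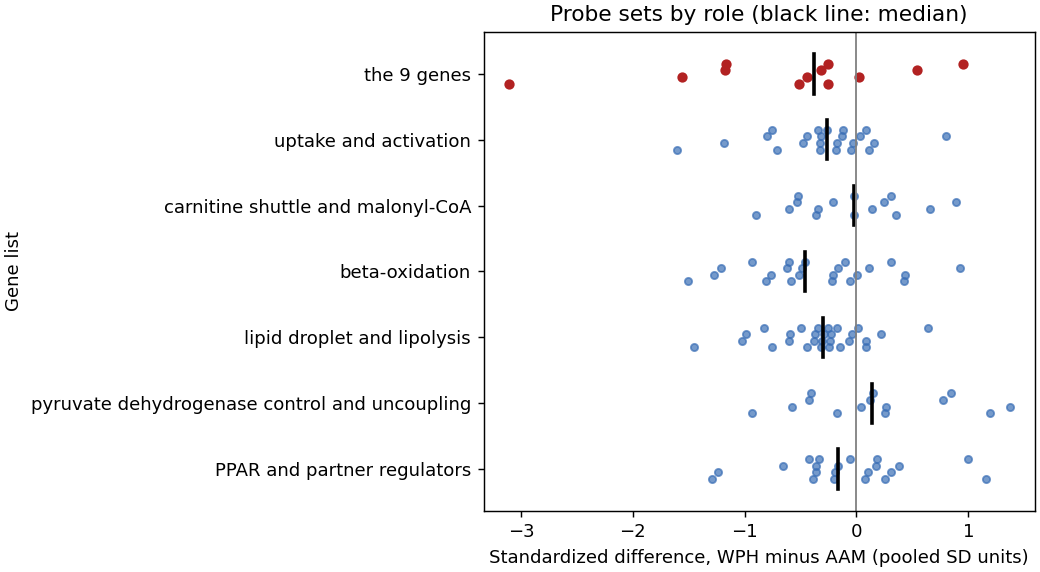
Standardized difference (WPH minus AAM, pooled SD units, x axis) of each probe set of the 9 genes (red) and of 6 lists of other pathway genes (blue), by list (y axis), with a black line at the median. The medians run from -0.46 for beta-oxidation to 0.14 for pyruvate dehydrogenase control and uncoupling, and Mlycd at -3.11 lies outside the range of -1.60 to 1.37 of the other pathway genes.

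PPAR receptors bind DNA as a pair with RXR at a direct repeat of the core site AGGTCA. The 250 bases before the annotated start were searched on both strands in the promoters of 7 of the 9 genes, since Cpt1b and Lpl had no match in the RefSeq promoter table. No member held the full repeat with its 1-base spacer, which 0.0508% of 33469 promoters held. The core site occurred in Plin5 and Ucp3, that is in 2 of 7 genes, against 14.1% of all promoters. These are shown with the core site in capitals, beside Mlycd, the gene whose groups did not overlap, which held none. They are from RefSeq on GRCr8, 5′ to 3′ on the gene's strand. Plin5 lies on the minus strand at chr9:1033285-1033534, Ucp3 on the plus strand at chr1:164227660-164227909 and Mlycd on the plus strand at chr19:64356332-64356581.
Plin5: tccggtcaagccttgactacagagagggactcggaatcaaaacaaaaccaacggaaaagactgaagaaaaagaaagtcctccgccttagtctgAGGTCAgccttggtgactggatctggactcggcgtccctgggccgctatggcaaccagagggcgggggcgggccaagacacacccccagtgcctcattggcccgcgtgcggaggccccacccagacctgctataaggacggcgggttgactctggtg
Ucp3: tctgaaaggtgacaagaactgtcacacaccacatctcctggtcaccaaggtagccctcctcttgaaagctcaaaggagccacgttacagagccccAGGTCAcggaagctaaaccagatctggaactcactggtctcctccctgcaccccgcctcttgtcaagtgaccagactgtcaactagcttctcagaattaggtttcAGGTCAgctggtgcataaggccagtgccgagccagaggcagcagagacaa
Mlycd: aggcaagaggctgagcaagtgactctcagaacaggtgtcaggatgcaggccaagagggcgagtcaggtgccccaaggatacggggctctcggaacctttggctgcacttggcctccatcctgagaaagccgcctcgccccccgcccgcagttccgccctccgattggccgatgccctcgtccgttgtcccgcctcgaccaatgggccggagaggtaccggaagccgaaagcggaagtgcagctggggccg
The core site began 157 bases before the start of Plin5 and 155 and 50 bases before that of Ucp3. The standardized differences of the genes with a core site were -1.56 for Plin5 and 0.95 and 0.54 for Ucp3, and none of these probe sets passed the test. A match of letters is not a bound site, and binding was not measured.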

How the data were processed

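The deposited table holds 1 value per probe set and array on a log2-like scale made by the authors. The submitters' processing notes name R 2.7.2. No source used here says how background, normalization and probe summary were handled, and the scale and centring are unknown. Of 31099 probe sets, 57 controls were left out. Of the 31042 tested, 20826 had 1 symbol. WPH was compared with AAM in R 4.3.3 with limma 3.58.1, two-sided, using lmFit, eBayes and Benjamini-Hochberg adjustment over all 31042, with the labels' replicate numbers not used as a block. Standardized differences were given 95% intervals by the noncentral t distribution with 6 degrees of freedom (scipy 1.17.1), and exact permutation tests are two-sided. The procedure was tested on simulated data with independent normal noise and added shifts. That run checks the code and does not show that small differences would be found with 4 arrays per meal. Named beside the 9 genes were, for each role of the wider list, the 2 genes of smallest unadjusted p and 16 preset genes by their brightest probe set. The members and lists were chosen with earlier results of these data known. Alternatives were quantile normalization, median centring, the brighter part of the probe sets, a replicate block, a trended robust prior, array weights, a threshold of 0.1, 1 probe set per gene and leaving out each array. Leaving out AAM 3 and WPH 4 together was added after seeing the data.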

Additional observations from a re-analysis of the deposited data

Results flagged for a closer look

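Within a meal, 1 array stood far from the other 3 in 3 of the 24 groups tested, where chance gives about 1 in 20 groups, or 1.2 here. For Mlycd, AAM 3 was the highest AAM array, and its gap to the next was 0.908 of the group's range. For Ucp3 probe set 1382958_at, AAM 3 was again the highest, with a gap of 0.963 of the range. For Ucp3 probe set 1387681_at, WPH 4 was the lowest WPH array, with 0.919 of the range. The smallest array weights that limma estimated over all probe sets were 0.608 for AAM 3 and 0.817 for WPH 4.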

How the results depend on the processing

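The count of called probe sets among the 12 was 0 under each alternative run. Over all tested it was 5 with quantile normalization and 0 under the others. With median centring the number higher after WPH was 1 of the 12 and 16 of the 124 in the wider list, and the differences of Pdk4 1378074_at and Ucp3 1387681_at turned to -1.17e-05 and -6.10e-06. With quantile normalization the number higher was 1 of the 12, and Ucp3 1387681_at had -7.42e-04. Of all 31042 tested, 2796 were higher with median centring and 13819 with quantile normalization. Leaving out 1 array, the number higher ranged from 2 to 6 of the 12 and from 35 to 57 of the 124. The differences then ranged from -3.95e-05 to 1.02e-05 for Cd36, from -0.00139 to 1.03e-04 for Angptl4, from -2.50e-05 to 1.60e-06 for Cpt1b, from -1.13e-04 to 1.82e-05 for Plin2 1390383_at, from -6.92e-06 to 5.07e-07 for Pdk4 1369150_at and from -1.20e-07 to 1.22e-07 for Pdk4 1378074_at. Without AAM 3 and WPH 4 the wider list had 67 higher, and Cd36, Cpt1b and Pdk4 1378074_at had 3.70e-06, 1.90e-07 and -3.33e-09. The replicate block left the count of calls at 0. Same-numbered arrays correlated between -0.07 and 0.16 in their deviations from the group means, and 2 of 4 AAM arrays correlated best with the WPH array of their number, so the numbers were not taken as pairs. The cause of these changes was not tested.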

Other observations

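The genes whose values over the 8 arrays were most like those of a member were found among 12272 probe sets of 1 symbol and above-median mean level. These are the highest correlations of that many, so they carry no p. Angptl4 was most like Alg8 (Pearson r = 0.99 over 8 arrays), a gene of protein glycosylation, and Ces1d (0.98), a carboxylesterase gene. Mlycd was most like Atp6v0c (0.95), a subunit of the vacuolar proton pump, which had a standardized difference of -2.39, and Pitpnm1 (0.95), with -2.04. Cd36 was most like Aimp1 and Naa12 (both 0.97), and Cpt1b like Car14 (0.97), a carbonic anhydrase gene, and Ogt (0.92). Plin5 was most like Ptges2 (0.98) and Apex2 (0.96), Ucp3 like Adam17 (0.99) and Ehd2 (0.96), Lpl like Atp13a2 (0.98) and Gps2 (0.97), Plin2 like Adck1 and Nifk (both 0.94), and Pdk4 like Oser1 and Tcp11l2 (both 0.99).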
